A study of Bos taurus with 9 samples.

Results

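The NRF2 pathway was followed here in cow liver through 9 genes, chosen by symbol among the 28786 genes of the deposited count table. They comprised 2 regulators (NFE2L2 and KEAP1) and 7 targets (HMOX1, NQO1, GCLC, GCLM, TXNRD1, SRXN1 and SLC7A11), and the question was whether HMOX1 moved with the other targets. All 9 symbols were found and matched to protein-coding cattle genes. The samples were liver biopsies of lactating Holstein dairy cows that were taken in the second week of treatment, with 1 poly-A RNA library per cow. TN cows (n = 3) were kept at thermoneutrality. PF cows (n = 3) were kept at thermoneutrality but received only as much feed as the heat-stressed cows ate. HS cows (n = 3) were exposed to hot days and warm nights. HS against TN therefore holds heat and low intake together, HS against PF compares groups of matched intake, and PF against TN compares groups that were both at thermoneutrality but differed in intake. The 3 comparisons share their cows, so that a high or low cow enters more than 1 of them.

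NFE2L2 codes for the transcription factor NRF2, which binds antioxidant response elements together with small MAF proteins. In unstressed cells KEAP1 hands NRF2 to a CUL3 ubiquitin ligase for degradation, and electrophiles or oxidants that modify KEAP1 let NRF2 accumulate. NRF2 is therefore set mainly at the protein level, and in liver its targets supply glutathione, thioredoxin reduction, quinone reduction and heme degradation. HMOX1, the inducible heme oxygenase, opens the heme ring to biliverdin, carbon monoxide and iron. It is known for further inputs, among them the heme-sensing repressor BACH1 and the heat shock factor HSF1, and in liver it is prominent in Kupffer cells, which take up ageing red cells. Protein amounts were not measured in these libraries.

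The counts on genes ranged from 16874444 to 22557047 per library, and 21008 genes had a count. Values are CPM, read counts scaled to the library size after TMM normalization, where 3 counts correspond to 0.111 to 0.202 CPM; such a limit covers counting error only. They are comparable between cows for 1 gene but not between genes, since gene length was not taken into account. The defining hepatocyte markers were present in every cow, but their summed level was 15790 CPM in TN replicate 1 against 55488 to 112111 CPM in the other 8 cows. The 13 mitochondrial protein-coding genes took 13.6% to 22.2% of the counts in TN, 6.90% to 7.79% in PF and 3.84% to 5.68% in HS cows, with TN replicate 1 the highest. TN replicate 1 thus stands apart, and values without it, which for genes other than the members were added after seeing the data, are given beside the results they move. In biopsies of whole tissue, fewer cells of a type and less RNA per cell cannot be told apart.

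HMOX1 was the one member that was higher in every HS cow than in every other cow. It was at 55.1, 104 and 67.5 CPM in the TN cows, at 76.0, 97.6 and 85.3 CPM in the PF cows, and at 244, 125 and 297 CPM in the HS cows. HS replicates 1 and 3 stood far above the rest, while HS replicate 2 was close to the highest TN cow, TN replicate 2. The means were 75.7 ± 25.6 CPM in TN, 86.3 ± 10.8 CPM in PF and 222 ± 88.2 CPM in HS cows (SD, n = 3). The counts behind these values ran from 1132 to 6572, so that the spread between cows and not counting error set the precision.

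**Figure D1:**
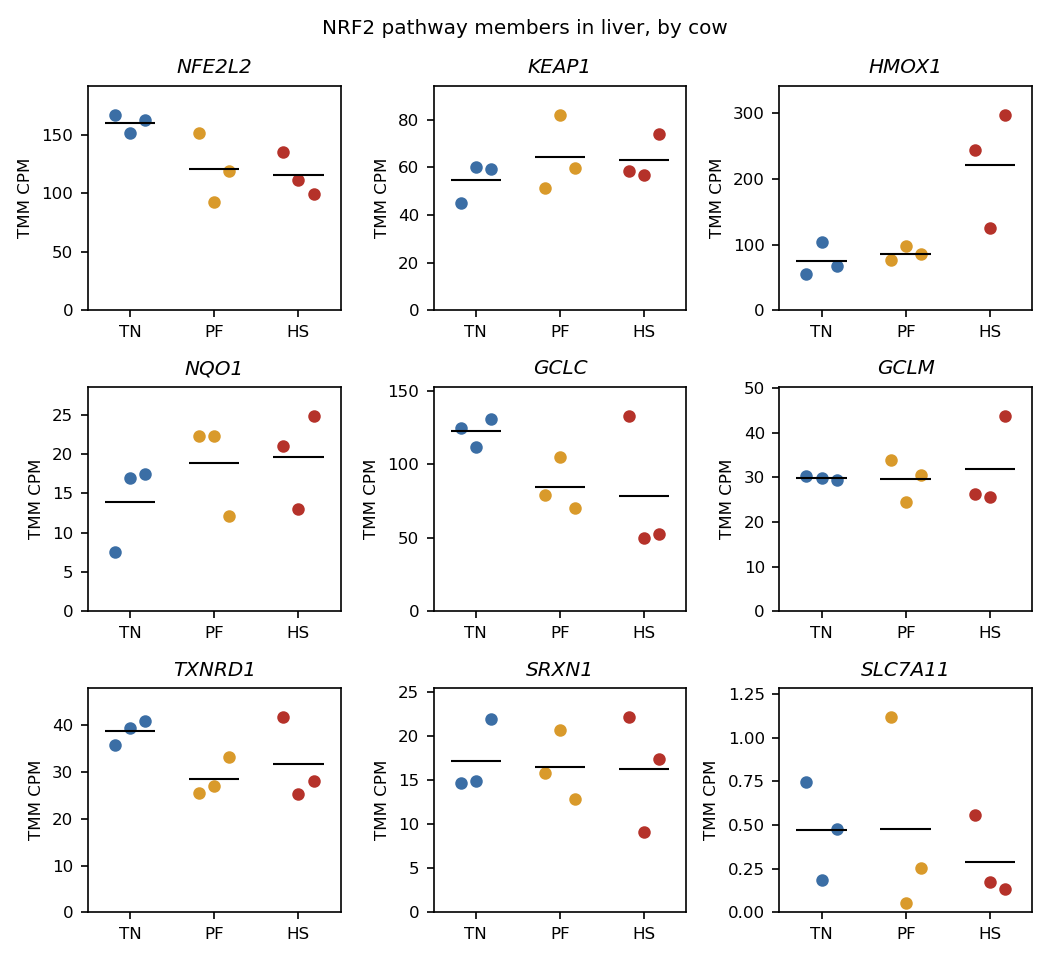
TMM-normalized CPM of the 9 members in each cow (points) of the TN, PF and HS groups, with the group mean as a bar and a linear axis from 0 in each panel. HMOX1 is the panel in which all 3 HS cows lie above the other 6, and SLC7A11 stays at or below 1.12 CPM throughout.

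The log2 fold change of HMOX1 in HS compared to TN cows was 1.53 (SE 0.38, 95% interval 0.67 to 2.39), a 2.89-fold difference. With the quasi-likelihood test of edgeR the unadjusted p was 0.00270, but after Benjamini-Hochberg adjustment over 14582 genes the FDR was 0.315, and HMOX1 was not a DEG, for which a fold change over 1.5 at an FDR under 0.1 was needed. DESeq2 on the same 6 libraries gave a log2 fold change of 1.56 with an adjusted p of 0.00313 and did call it. HMOX1 ranked 124th of 14582 genes by p in edgeR, and its fold change was at percentile 99.03 of all genes. Without TN replicate 1 the log2 fold change was 1.37 (edgeR FDR 0.583), and in a fit that dropped the mitochondrial genes it was 1.53.

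Against PF cows, HS cows had a log2 fold change of 1.35 (SE 0.32, 95% interval 0.64 to 2.07), or 2.56-fold. The edgeR p of 0.00158 again did not pass the adjustment (FDR 0.377), whereas DESeq2 called HMOX1 with an adjusted p of 0.00712. In PF compared to TN cows, the log2 fold change was 0.18 (SE 0.30, 95% interval -0.47 to 0.83, edgeR FDR 0.875), and the PF cows lay within the range of the TN cows. Without HS replicate 3, the highest cow, HMOX1 was still 1.26 higher than TN and 1.09 higher than PF on the log2 scale (edgeR FDR 0.612 and 0.603).

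The transcript of the transcription factor itself, NFE2L2, was at 166, 151.3 and 163 CPM in TN cows, at 151.2, 92.6 and 119 CPM in PF cows and at 135, 111 and 99.3 CPM in HS cows. Every HS cow and every PF cow was below every TN cow, PF replicate 1 only just. On the log2 scale the fold change was -0.50 in HS compared to TN (SE 0.25, edgeR FDR 0.541) and -0.42 in PF compared to TN (SE 0.30, edgeR FDR 0.739), and neither passed the test. Between HS and PF cows it was -0.08 (95% interval -0.66 to 0.50).

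KEAP1, the adaptor that presents NRF2 for degradation, was at 44.9, 60.2 and 59.3 CPM in TN, at 51.4, 81.9 and 59.7 CPM in PF and at 58.5, 56.7 and 74.0 CPM in HS cows. The 3 groups overlapped, with PF replicate 2 the highest and TN replicate 1 the lowest. Its log2 fold change was 0.18 in HS compared to TN (95% interval -0.32 to 0.68) and -0.04 in HS compared to PF (95% interval -0.58 to 0.51). The gene overlaps LOC132345696 in the RefSeq annotation, and the strand setting of the counting is not given in the sources used here, so reads of the pair may not be separable.

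NQO1, which reduces quinones to hydroquinones and is widely used as a readout of NRF2, was at 7.51, 16.9 and 17.5 CPM in TN, at 22.3, 22.3 and 12.1 CPM in PF and at 21.0, 13.1 and 24.8 CPM in HS cows. The groups overlapped, and the low TN value came from TN replicate 1. HS compared to TN gave a log2 fold change of 0.48 (SE 0.35, 95% interval -0.30 to 1.26, edgeR FDR 0.648), and without TN replicate 1 it was 0.19. PF cows had a log2 fold change of 0.43 against TN (SE 0.36, edgeR FDR 0.763), and HS cows were at 0.05 against PF (95% interval -0.64 to 0.73).

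Glutamate-cysteine ligase catalyses the first step of glutathione synthesis and consists of a catalytic subunit, GCLC, and a modifier subunit, GCLM. GCLC was at 125, 111 and 130.4 CPM in TN cows, at 79.4, 105 and 70.3 CPM in PF cows and at 133, 49.7 and 52.4 CPM in HS cows. All PF cows were below all TN cows, whereas the HS group was split, with HS replicate 1 the highest of the 9 cows and the other HS cows the lowest. Fold changes on the log2 scale were -0.67 in HS compared to TN (SE 0.38, edgeR FDR 0.583) and -0.54 in PF compared to TN (SE 0.28, edgeR FDR 0.709). Without HS replicate 1 the HS against TN value was -1.29 (edgeR FDR 0.386).

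GCLM was at 30.2, 29.8 and 29.4 CPM in TN, at 33.9, 24.5 and 30.4 CPM in PF and at 26.2, 25.7 and 43.7 CPM in HS cows. The TN cows were nearly identical, and HS replicate 3 alone was well above the other 8. Its log2 fold change was 0.06 in HS compared to TN (95% interval -0.50 to 0.62) and 0.09 in HS compared to PF (95% interval -0.49 to 0.67). The 2 subunits did not share their high cow: GCLC was highest in HS replicate 1 and GCLM in HS replicate 3, and both of these cows had a high HMOX1 level.

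TXNRD1, the cytosolic thioredoxin reductase, was at 35.8, 39.4 and 40.8 CPM in TN, at 25.6, 26.9 and 33.3 CPM in PF and at 41.7, 25.3 and 28.2 CPM in HS cows. As for GCLC, the PF cows were all below the TN cows, HS replicate 1 was the highest cow and HS replicate 2 the lowest. Its log2 fold change was -0.45 in PF compared to TN (SE 0.23, unadjusted edgeR p 0.0768, FDR 0.709) and -0.31 in HS compared to TN (SE 0.23, edgeR FDR 0.657). TXNRD1 overlaps EID3 in the RefSeq annotation, with the same limit as for KEAP1.

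SRXN1, sulfiredoxin, restores peroxiredoxins that were overoxidised. It was at 14.7, 14.9 and 21.8 CPM in TN, at 15.8, 20.7 and 12.8 CPM in PF and at 22.1, 9.08 and 17.4 CPM in HS cows. HS cows held both the highest and the lowest value, and the log2 fold changes were -0.10 in HS compared to TN (95% interval -0.84 to 0.63), -0.03 in HS compared to PF and -0.07 in PF compared to TN.

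SLC7A11, the light chain of the cystine and glutamate exchanger that feeds glutathione synthesis, was barely detected. The libraries held 17, 3 and 8 counts in TN, 19, 1 and 5 counts in PF and 15, 3 and 2 counts in HS cows, which is 0.0561 to 1.12 CPM. In each group replicate 1 held the most. It did not pass the filter on low counts in any of the 3 comparisons, so 8 of the 9 members were tested and no difference in SLC7A11 was.

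None of the 8 members tested was a DEG in HS compared to TN with edgeR, where 0.0892% of all genes were, and DESeq2 called 1 of them, HMOX1, against 1.32% of all genes. The edgeR shares are over genes past the filter on low counts (14582 in HS compared to TN). The DESeq2 shares throughout are over a larger set without that filter (20466), so the shares of the 2 tools are not alike. At an unadjusted edgeR p under 0.05 the count was 1 of 8, again HMOX1, against 9.36% of all genes. For 2 members, HMOX1 and NFE2L2, no HS cow lay within the range of the TN cows, which is 25% of those tested, against 16.1% of all genes. For HS compared to PF, edgeR called 0 members (0.0276% of all genes), DESeq2 called HMOX1 (0.596% of all genes), 1 of 8 had an unadjusted edgeR p under 0.05 (5.32% of all genes), and the cows did not overlap for HMOX1 only (10.6% of all genes). In PF compared to TN neither edgeR (0% of all genes) nor DESeq2 (0.449% of all genes) called a member, and 0 of 8 had an unadjusted p under 0.05 (6.88% of all genes). There the groups did not overlap for NFE2L2, GCLC and TXNRD1, all lower in PF, against 13.3% of all genes in either direction and 6.34% with PF lower.

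**Figure D2:**
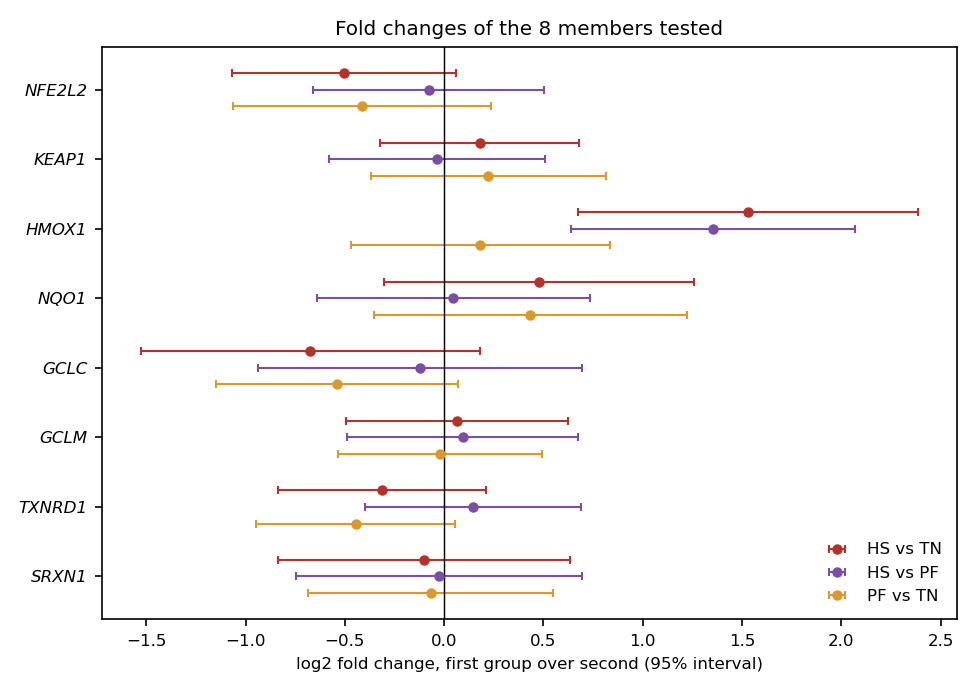
The log2 fold change from edgeR of the 8 members tested, with its 95% interval, in HS against TN, HS against PF and PF against TN. The intervals of HMOX1 in HS against TN (0.67 to 2.39) and HS against PF (0.64 to 2.07) lie above 0, and all others include it.

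The other 7 tested members had log2 fold changes from -0.67 to 0.48 in HS compared to TN and from -0.12 to 0.14 in HS compared to PF, and all of their 95% intervals included 0. The upper bounds of these intervals were below the estimate for HMOX1 for 7 of 7 members in both comparisons. The interval of HMOX1 itself began at 0.67 and 0.64, while that of NQO1 reached 1.26 and 0.73, so these intervals overlapped. The difference between HMOX1 and the other members was not tested. The median over the 8 members was -0.02 in HS compared to TN and 0.01 in HS compared to PF, beside medians of -0.01 and 0.01 over all genes tested.

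Within single cows, the ratio of HMOX1 to each of the other 7 tested members was higher in every HS cow than in every TN or PF cow. The ratio of HMOX1 to NQO1 CPM was 3.86 to 7.35 in TN, 3.41 to 7.03 in PF and 9.54 to 11.97 in HS cows. The ratio to GCLC was 0.441 to 0.936, 0.931 to 1.21 and 1.84 to 5.66, and that to GCLM was 1.82 to 3.496, 2.24 to 3.98 and 4.86 to 9.32. These ratios need no library size, but all 7 share the HMOX1 values, so they are not separate observations.

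HMOX1 was also compared with the other 8 members across the 9 cows on the scale of log2(CPM + 0.5). No Pearson or Spearman correlation passed an exact two-sided permutation test adjusted over the 8 members. The highest was with NQO1, with r = 0.58 (exact permutation p 0.0975, adjusted p 0.424) and rho = 0.45 (exact permutation p 0.2298, adjusted p 0.460). Without HS replicates 1 and 3, the cows farthest from the median of HMOX1, r was 0.38, and without TN replicate 1 it was 0.41. KEAP1 had r = 0.51 and rho = 0.47 (exact permutation p 0.159 and 0.213, adjusted p 0.424 and 0.460), and r = 0.55 without these cows. With 1 cow left out the r of KEAP1 ran from 0.31 without HS replicate 3 to 0.74 without PF replicate 2.

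NFE2L2 ran the other way, with r = -0.54 (exact permutation p 0.136, adjusted p 0.424), rho = -0.67 (exact permutation p 0.0589, adjusted p 0.460), and r = -0.67 without the 2 farthest cows. GCLM had r = 0.29 and rho = -0.08 (exact permutation p 0.455 and 0.843, adjusted p 0.607 and 0.843). Its r was -0.56 without HS replicates 1 and 3, and the sign rested on HS replicate 3, since r was -0.58 without that cow and 0.55 without HS replicate 1. SRXN1 had r = 0.16 and rho = 0.15 (exact permutation p 0.672 and 0.708, adjusted p 0.768 and 0.843), and r = -0.47 without both cows. Its sign rested on HS replicate 1, since r was -0.08 without that cow and 0.13 without HS replicate 3.

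GCLC had r = -0.36 and rho = -0.33 (exact permutation p 0.339 and 0.385, adjusted p 0.542 and 0.617), and r = -0.64 without these cows. With 1 cow left out it ran from -0.72 without HS replicate 1 to -0.03 without HS replicate 3. TXNRD1 had r = -0.06 and rho = -0.08 (exact permutation p 0.862 and 0.843, adjusted p 0.862 and 0.843), and r = -0.44 without them. For SLC7A11, measured near its floor, r was -0.39 and rho was -0.57 (exact permutation p 0.301 and 0.121, adjusted p 0.542 and 0.460), with r = -0.73 without them.

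Taken as deviations from the means of the 3 groups, which removes the differences between groups, r with HMOX1 was 0.68 for NQO1, 0.65 for KEAP1, 0.59 for SRXN1, 0.42 for TXNRD1, 0.38 for GCLM, 0.24 for GCLC, -0.31 for NFE2L2 and -0.35 for SLC7A11. These values are a description of 9 cows in 3 groups. The median r of the other 7 tested members was 0.16 over the 9 cows, and 0.42 as deviations, beside 0.06 in both for the 13556 genes with a mean of at least 1 CPM. None of the 7 had an r over 0.6, which 9.85% of these genes had.

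**Figure D3:**
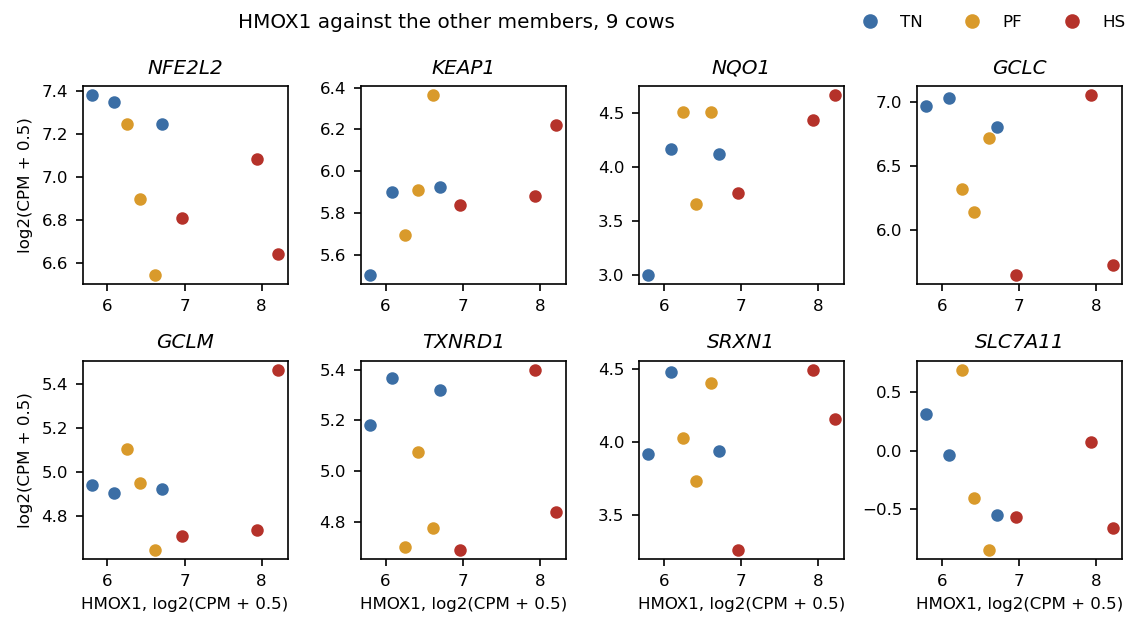
HMOX1 (horizontal axis) against each of the other 8 members (vertical axis) in 9 cows, both as log2(CPM + 0.5), coloured by group. No panel shows a relation that passed the permutation test, and the closest, NQO1, has r = 0.58.

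Among all 36 pairs of the 9 members, the Pearson r and the rho largest in size did not involve HMOX1. By r it was the pair of NFE2L2 and KEAP1. They had r = -0.81 (exact permutation p 0.00482, adjusted over the 36 pairs 0.174) and rho = -0.62 (exact permutation p 0.0857, adjusted p 0.386). Without HS replicate 3 and PF replicate 2, the cows farthest from the median of NFE2L2, r was -0.45. Next by r were pairs with SLC7A11, which is near its floor, namely KEAP1 (r = -0.79 and rho = -0.82, adjusted exact permutation p 0.181 and 0.194) and NFE2L2 (r = 0.76 and rho = 0.77, adjusted exact permutation p 0.236 and 0.257). The largest rho was that of GCLC and TXNRD1, which had r = 0.75 and rho = 0.85 (exact permutation p 0.0262 and 0.00607, adjusted p 0.236 and 0.194). They shared the high value of HS replicate 1 and the low values of the PF cows, and without HS replicates 2 and 3 their r was 0.65.

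Of the partners that bind, modify or degrade NRF2 and its relatives, 18 of 18 were tested. In HS compared to TN, 0 passed the test in edgeR or DESeq2, 0 had an unadjusted edgeR p under 0.05 (9.36% of all genes did), and the median log2 fold change was 0.15, or 0.05 without TN replicate 1. The highest was MAFF, a small MAF protein, at 0.75 (SE 0.45, edgeR FDR 0.591), and the lowest was BACH2, a repressor related to BACH1, at -1.32 (SE 0.77, edgeR FDR 0.586). BACH2 was low in HS cows, with 8 to 21 counts, and 1 HS cow against all 3 TN cows was over the cutoff of the filter. BACH1, which represses HMOX1 until heme releases it, was at 36.3, 25.5 and 35.6 CPM in TN, at 29.0, 24.3 and 24.5 CPM in PF and at 30.2, 27.1 and 22.6 CPM in HS cows. The groups overlapped, with a log2 fold change of -0.32 in HS compared to TN (95% interval -0.83 to 0.20). Against PF, 0 of the 18 passed the test in edgeR or DESeq2, and the median was -0.04. SESN2 was higher and BACH2 lower at an unadjusted edgeR p under 0.05, beside 5.32% of all genes in either direction. Here too 1 HS cow was over the cutoff for BACH2, against all 3 PF cows with 38 to 70 counts. The BACH2 difference is therefore a description only. Genes named beside such counts and outside the fixed rule, as SESN2 here, were chosen after their values were seen.

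Of 37 further known NRF2 targets, which cover glutathione, thioredoxin and NADPH supply, conjugation, export and ferritin, 36 were listed and 35 were tested in HS compared to TN. With edgeR 0 passed, and at an unadjusted p under 0.05 there were 2 higher (GGT1 and PRDX6) and 1 lower (TKT), beside 4.13% and 5.23% of all genes. The median log2 fold change was 0.10, or -0.06 without TN replicate 1, and 22 of the 35 were above 0, beside 49.3% of all genes. The highest was PRDX6, a peroxiredoxin that reduces phospholipid hydroperoxides, at 0.92 (SE 0.41, edgeR FDR 0.522). PRDX6 was at 33.4, 94.7 and 93.9 CPM in TN and at 101, 128 and 195 CPM in HS cows, so the groups did not overlap, with TN replicate 1 far below the others, and without that cow the value was 0.58 (edgeR FDR 0.794). TKT, the transketolase of the pentose phosphate pathway, was the lowest at -0.90 (SE 0.38, edgeR FDR 0.512), or -1.16 without TN replicate 1.

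When HS cows were compared to PF cows, 36 of these targets were tested and edgeR called 0, while 1 was higher (GGT1) and 2 were lower (IDH1 and GPX2) at an unadjusted p under 0.05, beside 3.07% and 2.25% of all genes. DESeq2 called the same 3 genes, beside 0.596% of all genes in either direction, but GPX2 was over the cutoff of the filter in PF cows only and is given as a description. The median log2 fold change was 0.03. The comparison of HS with PF, where HMOX1 was 2.56-fold higher, thus had medians near 0 in the members, the partners and the further targets alike.

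**Figure D4:**
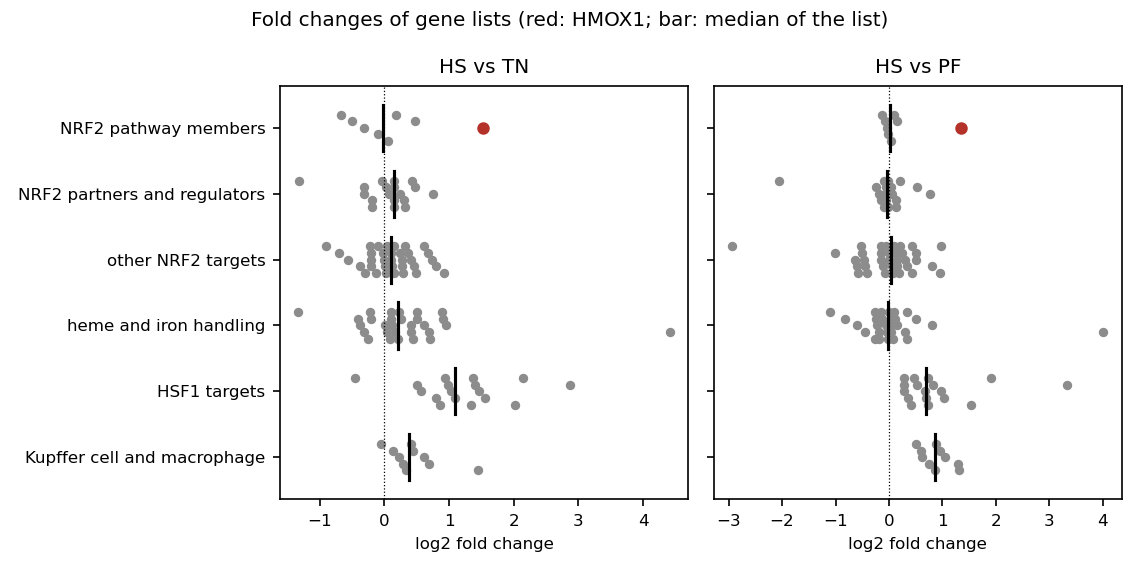
The log2 fold change of each tested gene of 6 lists in HS against TN (left) and HS against PF (right), with HMOX1 in red and the median of each list as a bar. HMOX1 lies at 1.53 and 1.35, and the medians of the 3 NRF2 lists lie between -0.04 and 0.15. Those of the other lists are 0.22 and -0.02 (heme and iron), 1.09 and 0.69 (HSF1 targets) and 0.38 and 0.87 (macrophage markers).

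Of the genes that make, carry, degrade or store heme and iron, 29 of 29 were tested. With edgeR 0 were called in HS compared to TN, with 5 higher (HMOX2, CPOX, SLC48A1, HP and PCBP1) and 1 lower (UROS) at an unadjusted p under 0.05, beside 4.13% and 5.23% of all genes. The median log2 fold change was 0.22. Without TN replicate 1 it was 0.09, with 2 genes higher and 2 lower at an unadjusted p under 0.05, beside 3.19% and 3.28% of all genes. DESeq2 called 1 of them (1.32% of all genes in either direction), UROS, the uroporphyrinogen synthase of heme synthesis, with a log2 fold change of -1.33 in edgeR (SE 0.34, edgeR FDR 0.329, DESeq2 adjusted p 0.0487). UROS was at 34.99, 14.6 and 38.2 CPM in TN and at 11.1, 11.9 and 12.9 CPM in HS cows, and the groups did not overlap. With PF cows as the reference, 1 gene was higher (HP) and 2 were lower (UROS and HRG) at an unadjusted edgeR p under 0.05, beside 3.07% and 2.25% of all genes, and the median was -0.02. EdgeR called 0 of them and DESeq2 called HRG, beside 0.596% of all genes.

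HMOX2, the constitutive heme oxygenase, was at 29.6, 57.8 and 55.1 CPM in TN, at 68.7, 93.4 and 73.7 CPM in PF and at 88.6, 55.3 and 91.9 CPM in HS cows. The fold change on the log2 scale was 0.71 in HS compared to TN (SE 0.31, edgeR FDR 0.518), 0.72 in PF compared to TN (SE 0.30, edgeR FDR 0.708) and -0.01 in HS compared to PF (95% interval -0.58 to 0.57). The PF cows were all above the TN cows, while HS and PF cows overlapped. Without TN replicate 1, the lowest cow, HMOX2 was at 0.47 in HS and 0.49 in PF compared to TN.

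BLVRB, a biliverdin reductase, had log2 fold changes of -0.21 in HS compared to TN (SE 0.38, edgeR FDR 0.855) and -0.60 in HS compared to PF (SE 0.31, edgeR FDR 0.960). The ferritin chains that store released iron differed in their values, with FTH1 at 0.10 (SE 0.52, edgeR FDR 0.957) and FTL at 0.61 (SE 0.51, edgeR FDR 0.693) in HS compared to TN. FTL was at 1854, 4301 and 4754 CPM in TN and at 6256, 5057 and 5565 CPM in HS cows, so these groups did not overlap. Both ferritin values leaned on TN replicate 1, without which FTH1 was at -0.18 and FTL at 0.31, and BLVRB was at -0.53.

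HPX, the plasma scavenger of free heme, had a log2 fold change of 0.89 in HS compared to TN (SE 0.61, edgeR FDR 0.632), or 0.51 without TN replicate 1. HP, which binds free hemoglobin and is an acute phase protein in cattle, was at 14.3, 135 and 846 CPM in TN, at 9.11, 1107 and 211 CPM in PF and at 1732, 19424 and 234 CPM in HS cows. Its log2 fold change of 4.41 (SE 1.69, edgeR FDR 0.487) was the highest of the list, but the groups overlapped, and HS replicate 2, the HS cow with the least HMOX1, had the most HP.

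Genes of the heat shock factor HSF1 were set beside HMOX1, since that factor is a known input to it. Compared to TN, 15 of 17 were higher and 0 lower at an unadjusted edgeR p under 0.05, beside 4.13% and 5.23% of all genes, and the median log2 fold change was 1.09. Without TN replicate 1 it was 0.84, with 11 of 17 higher and 0 lower, beside 3.19% and 3.28% of all genes in that fit. With edgeR 1 of them, HSPH1, rose as a DEG (0.0343% of all genes did), and DESeq2 called 9, all higher (0.65% of all genes were). HSPH1, a nucleotide exchange factor of HSP70, was at 14.3, 19.9 and 23.0 CPM in TN, at 16.9, 27.5 and 14.5 CPM in PF and at 52.4, 56.2 and 62.7 CPM in HS cows. Its log2 fold change was 1.56 (SE 0.23, edgeR FDR 0.0879) against TN, close to that of HMOX1, and its HS values were less spread, with a coefficient of variation of 9.09% against 39.8% for HMOX1. The call of HSPH1 was lost when any 1 of the 6 cows was left out (log2 fold change 1.41 to 1.71, edgeR FDR 0.110 to 0.246).

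The highest of that list was HSPA6, an inducible HSP70, at 2.88 (SE 0.47, edgeR FDR 0.114, called by DESeq2), and the lowest was HSPA4L, a relative of HSPH1, at -0.46 (SE 0.46, edgeR FDR 0.741). HSPA6 was low, with 8 to 14 counts in TN and 67 to 118 in HS cows. All 3 HS cows but only 2 TN cows were over the cutoff of the filter, so its difference from TN is a description only. It is included in the counts of this list against TN. Compared to PF, 9 of the 17 were higher and 0 lower at an unadjusted edgeR p under 0.05, beside 3.07% and 2.25% of all genes, and the median was 0.69. EdgeR called 0 and DESeq2 called 4 (HSPA6, HSPH1, DNAJB1 and CRYAB), all higher (0.356% of all genes were). In PF compared to TN, where HMOX1 was at 0.18, the median of the 17 was 0.45, or 0.21 without TN replicate 1. There 2 were higher and 0 lower at an unadjusted edgeR p under 0.05, beside 6.88% of all genes in either direction. Neither tool called any of them. The median r with HMOX1 over the 9 cows was 0.77, and 16 of 17 had an r over 0.6, beside 9.85% of all genes. As deviations from the group means the median was 0.54. For the 36 further NRF2 targets the median r was 0.28, or 0.48 as deviations, and 5 had an r over 0.6. All genes had a median of 0.06 on both measures. The HSF1 list shares the group difference with HMOX1, so its r over 9 cows is a description only.

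Markers of other cells of the liver were then set beside HMOX1. Of 12 Kupffer cell and macrophage markers 11 were listed and 10 were tested. Their summed level was 1553 to 3599 CPM in TN, 1376 to 2177 CPM in PF and 2303 to 3931 CPM in HS cows, so HS cows were all above PF cows and overlapped TN cows. In HS compared to PF, 9 of the 10 were higher at an unadjusted edgeR p under 0.05 (3.07% of all genes), with a median log2 fold change of 0.87, but edgeR and DESeq2 each called 0. In HS compared to TN the median was 0.38, or 0.12 without TN replicate 1. There MARCO alone was higher at an unadjusted edgeR p under 0.05 (4.13% of all genes), edgeR called 0, and DESeq2 called MARCO (1.32% of all genes in either direction).

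The median r of these 10 markers with HMOX1 was 0.74, and 0.68 as deviations from the group means. TN replicate 2 had the highest macrophage sum of the TN cows (3599 CPM) and the highest HMOX1 of these cows, and HS replicate 2 had the lowest of the HS cows in both. Per 100 CPM of the macrophage list, HMOX1 was at 3.55, 2.90 and 3.49 CPM in TN, at 4.70, 4.48 and 6.20 CPM in PF and at 7.56, 5.41 and 7.55 CPM in HS cows. On that measure HS and TN cows did not overlap, while HS replicate 2 was below PF replicate 3. The part of macrophages in the HMOX1 difference was not tested.

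Neutrophil markers summed to 18.5 to 39.2 CPM in TN, 11.5 to 58.6 CPM in PF and 43.96 to 133 CPM in HS cows. All 5 measured had a positive log2 fold change in HS compared to TN (49.3% of all genes did), with a median of 1.51, or 1.25 without TN replicate 1. Of these, S100A9 and S100A12 had an unadjusted edgeR p under 0.05 (4.13% of all genes, higher) and were called by DESeq2 (0.65% of all genes, higher) but not by edgeR. In HS compared to PF, 3 of the 5 (S100A8, S100A12 and CXCR2) were higher at an unadjusted edgeR p under 0.05 (3.07% of all genes), and edgeR and DESeq2 each called 0. Red cell genes were low throughout, with a sum of 4.15 to 23.2 CPM in TN, 0.587 to 3.22 CPM in PF and 0.876 to 2.52 CPM in HS cows and SLC4A1 at 0 in every cow. Of the 2 tested in HS compared to TN, AHSP was at 0.41 and HBB at -4.04 on the log2 scale. HBB was not called by edgeR (FDR 0.163) but by DESeq2 (adjusted p 2.95e-07, beside 1.32% of all genes in either direction). It was at 3.22 to 22.4 CPM in TN and only 0.337 to 1.08 CPM in HS cows. These HS values are near the cutoff of the filter, which HBB passed through the TN cows. The HBB difference is therefore a description only. In PF compared to TN HBB was at -2.99, and neither tool called it. The part of neutrophils and red cells in the HMOX1 difference was not tested.

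**Figure D5:**
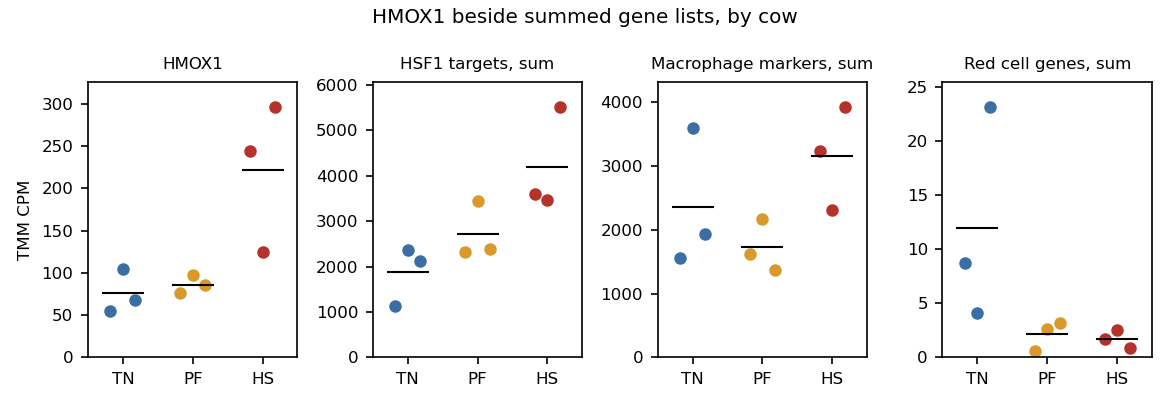
HMOX1 and the summed level of HSF1 targets, macrophage markers and red cell genes in each cow (points, in TMM-normalized CPM, linear axes from 0) with the mean of each group as a bar. HMOX1 and the HSF1 targets are highest in the HS cows, the macrophage sum overlaps between HS and TN, and the red cell sum is highest in TN replicate 3 at 23.2 CPM.

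Ranked over all genes with a mean of at least 1 CPM, the genes whose values across the 9 cows were most like those of HMOX1 were PTPA (r = 0.98), a phosphatase activator, and then ZUP1 (r = 0.94), PLBD2 (r = 0.93), COX10 (r = 0.93) and SERINC2 (r = 0.93). None of the other NRF2 members was among them. PTPA was at 45.9, 55.2 and 45.3 CPM in TN, at 49.9, 50.4 and 50.8 CPM in PF and at 70.6, 60.4 and 72.8 CPM in HS cows. These 5 are the top of 13556 genes over 9 cows in 3 groups, and they are named as a description with no test. By r with HMOX1, NQO1 stood at percentile 89.0 of these genes, KEAP1 at 83.4, GCLM at 66.6, SRXN1 at 57.3, TXNRD1 at 41.8, GCLC at 21.5 and NFE2L2 at 11.2.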

How the data were processed

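The values are the deposited read counts per gene, not normalized, with 1 column for each of 9 cows and 0 columns left out. The authors cleaned reads with fastp 0.23.2, aligned them to ARS-UCD1.2 with STAR 2.7.9a and counted them with featureCounts 2.0.3. The annotation release, strand and multi-mapping settings are not given in the sources used here. Gene positions are not given, as the RefSeq table at hand is of a later assembly and served only to match symbols and overlaps.

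Pairs of groups (6 libraries) were compared in edgeR 4.0.16 (R 4.3.3) with TMM, filterByExpr, quasi-likelihood F test, Benjamini-Hochberg adjustment over all genes tested, with a fold change over 1.5 at an FDR under 0.1 taken as a call. The authors used DESeq2, and DESeq2 1.42.0 was run as an alternative. Both were run on simulated counts with a common dispersion for all genes, which cannot decide between their differing calls here. Correlations used log2(CPM + 0.5) and exact permutation tests (scipy 1.17.1).

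The members, lists and tests were chosen with earlier results of these data known. Named are the members, the genes of the lists that edgeR called, the highest and lowest log2 fold change of each list in HS against TN, HMOX2, BACH1, HPX, HP, FTH1, FTL, BLVRB and the 5 genes most like HMOX1. The pairs among members, the ratios to HMOX1 and the fits of other genes without 1 cow were added after seeing the data. The alternatives were DESeq2, RLE size factors, mitochondrial genes left out, no filter, at least 10 counts in every library, an FDR under 0.05, a block for the replicate number, 1 fit of all 9 libraries and each cow left out. For correlations they were an offset of 2, RLE, Spearman's rho, group-mean deviations and cows left out.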

Additional observations from a re-analysis of the deposited data

How the results depend on the processing

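HMOX1 kept its direction under every alternative. Its call in HS against TN appeared with DESeq2 (log2 fold change 1.56) and with no filter on low counts (1.55, edgeR FDR 0.0911), and in HS against PF likewise (1.35 with DESeq2; 1.36 with no filter, edgeR FDR 0.0439), so the number of members called went from 0 to 1 in these settings; the cause was not tested. With 1 cow left out in turn, the log2 fold change of HMOX1 ran from 1.26 to 1.83 in HS against TN (edgeR FDR 0.212 to 0.662), from 1.09 to 1.64 in HS against PF (0.232 to 0.962) and from 0.01 to 0.48 in PF against TN. Members near 0 changed sign when 1 cow was left out. In HS against TN these were SRXN1 (-0.39 to 0.19, without TN replicate 3 or HS replicate 2) and GCLM (-0.23 to 0.20, without HS replicate 3). In PF against TN they were GCLM (-0.13 to 0.10, without TN replicate 1 or PF replicate 2) and SRXN1 (-0.26 to 0.14, without TN or PF replicate 3). In HS against PF they were NFE2L2 (-0.24 to 0.12), KEAP1 (-0.17 to 0.18), NQO1 (-0.20 to 0.27), GCLC (-0.75 to 0.12), GCLM (-0.20 to 0.23), TXNRD1 (-0.11 to 0.28) and SRXN1 (-0.33 to 0.26), each without at least 1 of PF replicates 1 to 3 or HS replicates 1 to 3. Of the correlations with HMOX1, GCLM turned with Spearman's rho (-0.0833) and without the 2 farthest cows (-0.563), SRXN1 without these cows (-0.471), and GCLC (0.245) and TXNRD1 (0.419) as group-mean deviations. With 1 cow left out the ranges were -0.408 to 0.149 for TXNRD1, -0.0778 to 0.341 for SRXN1, -0.576 to 0.548 for GCLM, -0.722 to -0.0252 for GCLC and 0.313 to 0.742 for KEAP1. Samples of the same replicate number did not deviate together (r from -0.217 to 0.241, over 0.1 in 3 of 9 pairs). Different numbers ran from -0.312 to 0.303. No pairing by number was thus visible, though 3 cows per group cannot exclude one. With the replicate block HMOX1 was at 1.502, 1.28 and 0.22 in the 3 comparisons and 0 members were called. Over all genes, edgeR called 13 genes in HS against TN, 4 in HS against PF and 0 in PF against TN, and these counts were 270, 122 and 91 with DESeq2, 124, 98 and 136 with no filter, 33, 6 and 1 with the block, and 0 to 39, 5 to 10 and 0 to 14 with 1 cow left out. At an FDR under 0.05 the HS against TN count was 0, and with all 9 libraries in 1 fit it was 4. In HS against PF it was 8 with RLE size factors (3 higher, against 1 of 4) and 8 without mitochondrial genes. Of 336 alternative fold changes of members 309 kept their direction and side of the threshold, 23 changed sign and 4 became calls, and of 112 alternative correlations 10 changed sign. The 336 include the FDR under 0.05, which reused the main fit. As no member was called there, that setting could not change any of them. Of the other genes refitted without TN replicate 1, FTH1 changed sign in HS against TN (-0.18), and HSPH1 lost its call whichever of the 6 cows was left out (1.41 to 1.71).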

Other observations

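Among the further NRF2 targets and the heme genes, a few are given here that were chosen after their values were seen. SLC3A2, the heavy chain that pairs with SLC7A11, was at 29.5, 43.8 and 30.7 CPM in TN, at 38.7, 40.9 and 40.3 CPM in PF and at 51.0, 37.4 and 60.4 CPM in HS cows. It had the highest r with HMOX1 of its list, 0.92 over the 9 cows and 0.97 as deviations from the group means, while its light chain SLC7A11 had -0.39 and -0.35. At the other end of the further NRF2 targets, ABCC3 had -0.77 (-0.79 as deviations). Of the heme genes, PPOX, an oxidase late in heme synthesis, had the lowest r at -0.85 (-0.90 as deviations), and SLC48A1 the highest at 0.74 (0.63). BACH1 was at -0.53 (-0.63 as deviations). These are extremes of their lists and carry no test.

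The 3 further NRF2 targets that DESeq2 called in HS compared to PF differed in direction. GGT1, the gamma-glutamyl transferase that recycles extracellular glutathione, was at 107, 152 and 148 CPM in HS cows, at 58.3, 76.8 and 73.3 CPM in PF cows and at 101, 72.6 and 63.8 CPM in TN cows (log2 fold change 0.96, SE 0.25, edgeR FDR 0.420, DESeq2 adjusted p 0.0436). IDH1, which supplies cytosolic NADPH, was at 68.5, 155 and 132 CPM in TN cows, at 287, 258 and 321 CPM in PF cows and at 136, 122 and 174 CPM in HS cows. Its log2 fold change was -1.01 in HS compared to PF (SE 0.26, edgeR FDR 0.408, DESeq2 adjusted p 0.0143), and it was 1.28 in PF compared to TN (SE 0.35, edgeR FDR 0.647, DESeq2 adjusted p 0.0214), or 1.02 without TN replicate 1. The PF cows were thus above both other groups with no overlap. The third, GPX2, a glutathione peroxidase, was low, at 0.202 to 0.469 CPM (3 to 8 counts) in HS and 1.33 to 3.70 CPM (26 to 63 counts) in PF cows. It passed the filter on low counts only through the PF cows, where 3 of 3 were over its cutoff against 0 of 3 HS cows, and it was not tested in HS compared to TN, so its difference is a description only.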
